A study of Homo sapiens with 24 samples.

Results

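The effect of lowering PRKCQ was described across all genes in cells that had been stimulated with a phorbol ester. The comparison set cells with a hairpin against PRKCQ (shPRKCQ) against cells with a non-targeting control hairpin (NTC), all of them treated for 24 h with 10 ng/ml TPA. MyLa, an established line from mycosis fungoides, and HuT 78, an established line from Sézary syndrome, were pooled, with 3 libraries of each line per hairpin, or 6 against 6. Members were all genes of the authors' deposited table for TPA: 58780 genes from 12 of the 24 libraries of the series. Knockdown cells had been kept in doxycycline at 1 µg/ml for 72 h or longer before treatment, and whether NTC cells received the drug is not given in the sources used here. How many hairpin sequences or clones were used is not given either. A second table, with 13025 genes, holds the same comparison in DMSO, the vehicle, from the other 12 libraries. The tables give 1 fold change and p-value per gene over both lines, so values for each library, the spread between libraries, the depth and the difference between MyLa and HuT 78 are not analysed here. The labels count the libraries of a group as separate samples, and whether they were separate cultures could not be checked.

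Protein kinase C theta, the product of PRKCQ, is a kinase of T cells that is recruited to the contact between a T cell and an antigen-presenting cell. It binds diacylglycerol, and downstream of it NF-kappaB becomes active, while AP-1 and NFAT factors act beside it on cytokine genes. TPA takes the place of diacylglycerol and activates the diacylglycerol-binding kinases of the family at once, and long exposure is known to lower the amounts of some of these proteins. Stimulated T cells grow, divide, release cytokines and, in humans, carry MHC class II molecules on their surface.

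A fold change of -1 on the log2 scale means a level in shPRKCQ cells of 50% of that in NTC cells, and negative values are lower in shPRKCQ cells, a direction taken from PRKCQ itself. Of the 58780 genes, 34085 have a fold change, 34024 a p-value and 19417 one after adjustment by the authors' deposited table. The call rule was an adjusted p under 0.05, which 22 genes met (0.113% of those tested), 17 of them lower (0.0876%) and 5 higher (0.0258%) in shPRKCQ cells. Fewer cells that use a gene and less of its RNA per cell cannot be told apart in such bulk samples. All 22 are annotated as protein-coding, and 14 had an absolute log2 fold change above 1. At an unadjusted p under 0.05 stood 774 genes (3.99%), with 375 lower (1.93%) and 399 higher (2.05%). Among genes with an unadjusted p under 0.001, 51 were lower and 29 higher. The median over all genes with an adjusted p was 0.011, the quartiles were -0.10 and 0.13, and 47.0% were negative. Rescaling the p-values for their narrow spread gave 113 calls, 71 lower and 42 higher, and an adjustment that kept low genes gave 20, of which 17 were among the 22 (without DUSP15, SPP1, SEZ6L, ALKBH8 and HIPK2) and 3 were genes without an adjusted p.

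**Figure D1:**
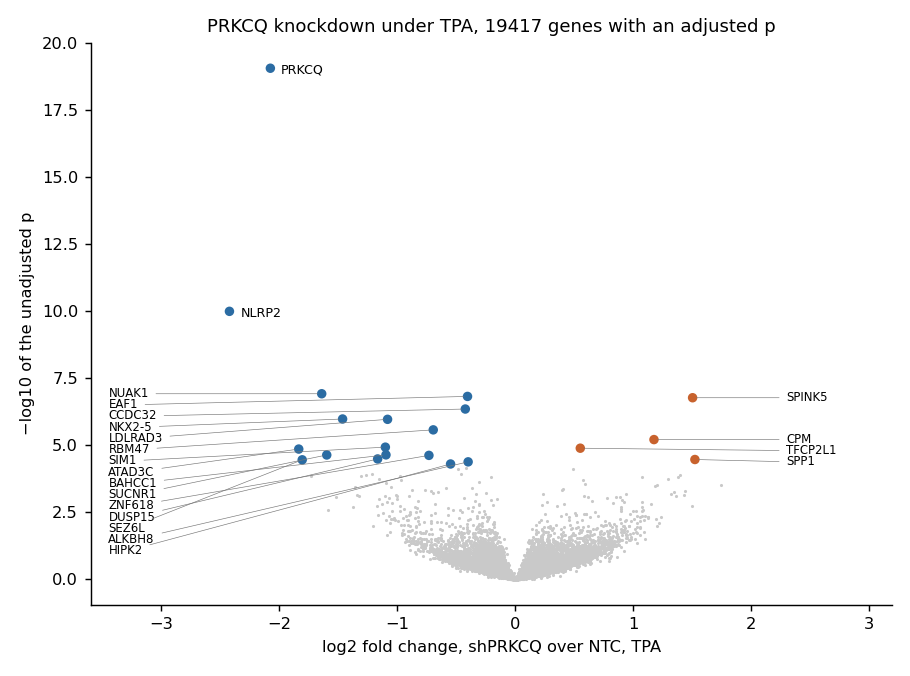
Log2 fold change of shPRKCQ over NTC under TPA (horizontal axis) against the −log10 of the unadjusted p (vertical axis) for the 19417 genes with an adjusted p by the authors' deposited table. Blue points are the 17 genes called lower and orange points 4 of the 5 called higher; grey points did not pass. PRKCQ and NLRP2 stand apart from the other calls drawn on the vertical axis.

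PRKCQ (ENSG00000065675.14; 6427143 to 6580301 on the minus strand of chromosome 10, GRCh38) fell to 23.7% of the NTC level, with a log2 fold change of -2.08 by the authors' deposited table (95% interval -2.52 to -1.63, adjusted p = 1.67e-15). Here and below, 95% intervals were computed from the deposited fold change and its p-value. If the fold changes were shrunken before deposit, as their shared values make likely, then intervals, percents of the NTC level and SEs of differences belong to the shrunken scale and are not those of the authors' model. In DMSO the authors' deposited table has -2.11, so the depth of the knockdown differed by 0.035 ± 0.33 (SE) between TPA and DMSO. NLRP2 (ENSG00000022556.15, chromosome 19, 54953130 to 55001142, plus strand), a NOD-like receptor that can join inflammasomes, had the lowest fold change of the 19417 genes, at -2.42 by the authors' deposited table (95% interval -3.16 to -1.69, adjusted p = 9.85e-07), or 18.6% of the NTC level. It lay below PRKCQ, but the intervals of both genes overlap. To show what stands before these genes, the stretch from 250 bases upstream of the RefSeq start to 10 bases after it is printed 5′ to 3′ on the gene's own strand, from the GRCh38.p14 build. Capitals mark matches on either strand to the CCAAT box, searched as CCAAT, and in PRKCQ also to the core of NFAT sites, searched as TGGAAA.
PRKCQ, chr10:6580637-6580896, minus strand: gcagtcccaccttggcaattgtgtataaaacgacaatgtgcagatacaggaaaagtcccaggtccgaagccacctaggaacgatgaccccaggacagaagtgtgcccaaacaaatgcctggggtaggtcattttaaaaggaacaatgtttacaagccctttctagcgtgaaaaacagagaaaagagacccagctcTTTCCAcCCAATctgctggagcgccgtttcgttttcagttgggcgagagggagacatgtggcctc
NLRP2, chr19:54965034-54965293, plus strand: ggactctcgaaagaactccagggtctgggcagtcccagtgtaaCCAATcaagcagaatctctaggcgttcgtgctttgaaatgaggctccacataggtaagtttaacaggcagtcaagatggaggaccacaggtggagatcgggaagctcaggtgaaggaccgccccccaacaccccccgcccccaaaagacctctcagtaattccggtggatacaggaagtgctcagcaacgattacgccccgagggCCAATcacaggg
In PRKCQ the matches begin 55 bases (NFAT core) and 48 bases (CCAAT) before the RefSeq start, with a single base between them. That start lies 345 bases from the gene start as GENCODE draws it, outside the gene span given above. In NLRP2 CCAAT begins 207 and 2 bases before the RefSeq start, which lies 12154 bases inside the gene as GENCODE draws it.

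Kinases, phosphatases and other signalling enzymes made up 3 further calls that fell. NUAK1 (chromosome 12, 106063340 to 106140033), a kinase related to AMPK, fell to 32.1% of the NTC level, with a log2 fold change of -1.64 by the authors' deposited table (95% interval -2.25 to -1.03, adjusted p = 0.000546). None of the other 17 AMPK-type kinases with an adjusted p was called, and NUAK2, its closest relative, was at -0.48 by the authors' deposited table (unadjusted p = 0.193). DUSP15 (chromosome 20, 31847637 to 31870747), a dual-specificity phosphatase, fell by 1.17 by the authors' deposited table (95% interval -1.72 to -0.62, adjusted p = 0.034). HIPK2 (chromosome 7, 139561570 to 139777778), a kinase that phosphorylates p53 and transcription factors, fell by 0.55 by the authors' deposited table (95% interval -0.81 to -0.28, adjusted p = 0.0442) and was the last gene inside the threshold. The first gene outside it was FNDC3B, an endoplasmic reticulum membrane protein, at -0.42 by the authors' deposited table (adjusted p = 0.0583).

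Receptors and other membrane proteins formed a second group of falls. SUCNR1 (chromosome 3, 151873643 to 151884619), the G protein-coupled receptor for succinate, fell to 33.0% of the NTC level, at -1.60 by the authors' deposited table (95% interval -2.34 to -0.86, adjusted p = 0.0273). It was the 1 call among 15 purine and succinate receptors, whose median was 0.086. LDLRAD3 (chromosome 11, 35943981 to 36232136), which resembles the low-density lipoprotein receptor and binds ubiquitin ligases of the NEDD4 family, fell by 1.08 by the authors' deposited table (95% interval -1.52 to -0.65, adjusted p = 0.00234). Of those ligases NEDD4L was at 0.53 and ITCH at -0.13 by the authors' deposited table (unadjusted p = 0.0431 and 0.112). SEZ6L (chromosome 22, 26169474 to 26383597), a membrane protein known from neurons, fell to 28.6% of the NTC level, at -1.81 by the authors' deposited table (95% interval -2.66 to -0.95, adjusted p = 0.034). Its interval is the widest of the 22, with an implied SE of 0.44 against 0.077 for EAF1, the narrowest.

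Several of the falls were in regulators of transcription, among them factors known from other tissues. NKX2-5 (chromosome 5, 173232109 to 173235357), a homeobox factor of the heart, fell by 1.46 by the authors' deposited table (95% interval -2.05 to -0.88, adjusted p = 0.00234). SIM1 (chromosome 6, 100385015 to 100464929), a factor of hypothalamic neurons, fell by 1.10 by the authors' deposited table (95% interval -1.59 to -0.61, adjusted p = 0.0191). BAHCC1 (chromosome 17, 81395475 to 81466332), a reader of the silencing mark H3K27me3, and ZNF618 (chromosome 9, 113876282 to 114056591), a zinc finger protein, fell by 1.10 and 0.73 by the authors' deposited table (both adjusted p = 0.0273). ZNF618 was the 1 call among 401 ZNF genes, of which 212 were lower and 189 higher, with a median of -0.014. EAF1 (chromosome 3, 15427355 to 15450635), a partner of the ELL elongation factors, had a small but precise fall of 0.40 by the authors' deposited table (95% interval -0.55 to -0.25, adjusted p = 0.000546). ELL2, an elongation factor to which it binds, was at -0.57 by the authors' deposited table and did not pass (unadjusted p = 0.00411), while the list of 23 elongation genes had a median of -0.012. TFCP2L1 (chromosome 2, 121216587 to 121285207), a grainyhead-type factor of pluripotent and kidney cells, rose by 0.55 by the authors' deposited table (95% interval 0.30 to 0.80, adjusted p = 0.0192).

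The other falls were in an RNA-binding protein, a tRNA-modifying enzyme, a coiled-coil protein and a mitochondrial ATPase. RBM47 (chromosome 4, 40423267 to 40630875), a cofactor of the cytidine deaminase APOBEC1 in RNA editing, fell by 0.69 by the authors' deposited table (95% interval -0.98 to -0.40, adjusted p = 0.00518). APOBEC1 itself was at -1.17 by the authors' deposited table, without passing (unadjusted p = 0.00399). RBM47 was the 1 call in a list of 17 editing and RNA-binding genes with 9 higher and 8 lower, and the list of 33 genes of tRNA modification and ribosome biogenesis had no call and a median of -0.020. ALKBH8 (chromosome 11, 107502726 to 107565746), which modifies the wobble uridine of tRNAs, and CCDC32 (chromosome 15, 40528683 to 40565057), a coiled-coil protein, fell by 0.40 and 0.42 by the authors' deposited table (adjusted p = 0.0385 and 0.00124). ATAD3C (chromosome 1, 1449689 to 1470158), of a family of mitochondrial membrane ATPases, fell to 28.0% of the NTC level, at -1.84 by the authors' deposited table (95% interval -2.66 to -1.01, adjusted p = 0.0192). Its near-identical neighbours ATAD3B and ATAD3A were at -0.12 and -0.074 by the authors' deposited table (unadjusted p = 0.647 and 0.72), and reads could be split among these genes.

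Secreted and cell-surface proteins made up 3 of the 5 rises. SPP1 (chromosome 4, 87975650 to 87983426), the secreted phosphoprotein osteopontin, rose to 2.88 times the NTC level, at 1.52 by the authors' deposited table (95% interval 0.80 to 2.25, adjusted p = 0.034). SPINK5 (chromosome 5, 148025683 to 148137289), the epidermal inhibitor of kallikrein proteases whose loss causes Netherton syndrome, rose to 2.84 times, at 1.50 by the authors' deposited table (95% interval 0.94 to 2.07, adjusted p = 0.000546). CPM (chromosome 12, 68842197 to 68971570), a membrane carboxypeptidase that trims basic residues from peptides, rose to 2.26 times, at 1.18 by the authors' deposited table (95% interval 0.67 to 1.69, adjusted p = 0.0109). Among all genes with an adjusted p, 1 lay above SPP1 and SPINK5: GAL3ST2, a sulfotransferase named after its value was seen, at 1.74 by the authors' deposited table, which did not pass. The SPP1 promoter is shown as an example from a gene that rose. It held no CCAAT box, no NFAT core and no AP-1 site, searched as TGANTCA, on the same stretch and in the same form. None of these absences is particular to genes that rose. Of 17 called genes with a promoter, 0 had an AP-1 site and 1 the NFAT core, and 8 of 13 that fell had a CCAAT box.
SPP1, chr4:87975464-87975723, plus strand: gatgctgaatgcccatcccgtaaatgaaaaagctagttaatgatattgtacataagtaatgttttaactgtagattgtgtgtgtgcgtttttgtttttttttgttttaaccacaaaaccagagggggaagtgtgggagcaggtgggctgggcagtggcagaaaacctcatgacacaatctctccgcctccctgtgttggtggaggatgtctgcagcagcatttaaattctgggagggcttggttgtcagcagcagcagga

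Over the 17 called genes found in the RefSeq promoter table, 8 held a CCAAT box in the window from 250 bases before to 50 after the start, 8 of 13 that fell and 0 of 4 that rose. Among 11024 protein-coding genes with an adjusted p the share was 36.6%, and over all 27305 promoters of this length 35.8%. AP-1 sites were in 0 of 17 windows, against 4.68% of the 11024 genes. The NFAT core was in 1 of 17, PRKCQ itself, against 15.3%. Both strands were searched and motifs may overlap. These are matches of letters in short windows and do not show what binds there. Some windows start far from the gene start as GENCODE draws it. Among genes that rose, those of CPM and SPINK5 lie 38371 and 38297 bases from it. Among genes that fell, that of NUAK1 lies 1079 bases away, that of NLRP2 12154 and that of PRKCQ 345.

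Of the 22 genes, 10 are also in the DMSO table (14 calls, 0.108% of its genes, and 3.04% at an unadjusted p under 0.05), and all 10 had the same sign there. Of these, 5 were called in DMSO and 9 had an unadjusted p under 0.05; 7 had the smaller absolute fold change in DMSO. SIM1 showed the widest gap: -1.10 in TPA against -0.32 in DMSO by the authors' deposited tables, a difference of -0.78 ± 0.36 (SE), which did not pass (adjusted p = 1 over 13007 genes, Benjamini-Hochberg on the difference of fold changes). CPM was at 1.18 and 0.76, HIPK2 at -0.55 and -0.30 and ALKBH8 at -0.40 and -0.26 by the authors' deposited tables. None of these gaps passed (unadjusted p = 0.375, 0.202 and 0.315 by the same difference test). For all genes in both tables, that test called 0 of 13007 (0% of those tested), with 57 at an unadjusted p under 0.05 (0.438%). Where nothing differs, a calibrated test puts a share of 0.05 under that threshold, so this test was too strict for these data. Its lack of calls does not show equal effects in TPA and DMSO. The tables share no library, but they may share cultures or a fit, which the test does not take into account. The other 12 called genes, NLRP2, SPINK5 and SPP1 among them, have no value in DMSO here.

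**Figure D2:**
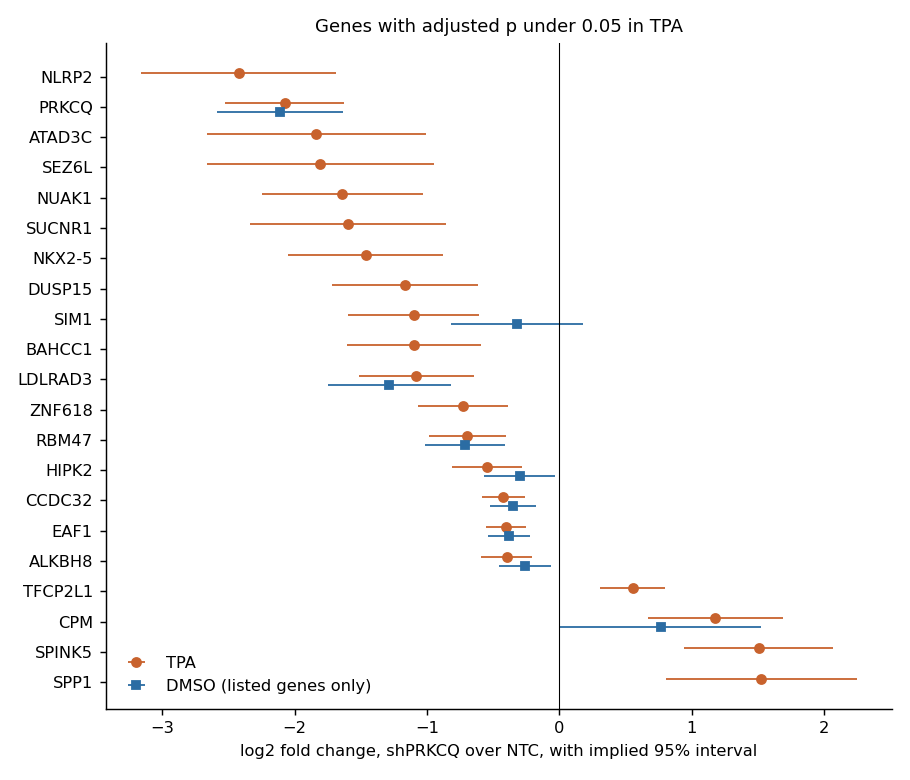
Log2 fold change of shPRKCQ over NTC (horizontal axis) for 21 of the 22 called genes (rows), in TPA as orange circles and, for the 9 of them listed there, in DMSO as blue squares; bars are 95% intervals computed from the deposited fold changes and p-values. The intervals overlap between treatments for each of the 9 genes, and of the 9 DMSO intervals only that of SIM1 includes 0.

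Genes lying near the calls, pooled over all 22, did not lean to the sign of the call. Within 500 kb of the 22 genes lie 210 other protein-coding genes with an adjusted p, with a median log2 fold change of 0.0025. Of these, 91 had the sign of the called gene and 13 (6.19%) an unadjusted p under 0.05, against 4.42% of all protein-coding genes, and none was called. The share with the same sign differed between calls. It was 8 of 10 beside EAF1, 4 of 4 beside ALKBH8 and 12 of 16 beside DUSP15. Beside ATAD3C it was 7 of 39 and beside CCDC32 8 of 24. Beside NLRP2, its relative NLRP7 was at -0.89 by the authors' deposited table (unadjusted p = 0.00368). NLRP7 starts 13.2 kb from the start of NLRP2, inside the NLRP2 span given above, so the 2 genes overlap. They are also similar in sequence. The killer immunoglobulin receptor genes KIR3DL1 and KIR2DL3, which start before NLRP2 on the chromosome, were at 0.63 and 0.50 by the authors' deposited table (unadjusted p = 0.0168 and 0.0232). Beside NUAK1 the nearest gene with such a p was CKAP4, an endoplasmic reticulum protein, at -0.59 by the authors' deposited table (unadjusted p = 0.000395). An opposite sign was seen beside LDLRAD3, where PRR5L, a partner of mTORC2, was at 0.59 by the authors' deposited table (unadjusted p = 0.000272). Next to ZNF618 the collagen gene COL27A1 was at 1.19 by the authors' deposited table (unadjusted p = 0.000324). The neighbours of PRKCQ, RBM17 and PFKFB3, were at 0.017 and -0.034 by the authors' deposited table. These neighbours were named after their values were seen.

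Just outside the threshold, 17 genes had an adjusted p from 0.05 to 0.1, 11 lower and 6 higher. Among them SFXN1, the mitochondrial serine carrier, was at -0.48 and ALDH1L1, which oxidises formyl-tetrahydrofolate, at -1.73 by the authors' deposited table (adjusted p = 0.0623 and 0.0846). MAT1A, the hepatic form of the enzyme that makes S-adenosylmethionine, was at 1.30 by the authors' deposited table (adjusted p = 0.0974). The list of 20 serine and one-carbon genes, which holds SFXN1 but neither ALDH1L1 nor MAT1A, had a median of 0.013, with 10 higher and 10 lower. Surface and trafficking genes near the threshold were SLAMF7, an activating receptor of lymphocytes, at 1.39, PTK7, a pseudokinase of Wnt signalling, at -1.27 and STX6, a SNARE of the Golgi, at 0.49 by the authors' deposited table (adjusted p = 0.0846, 0.0846 and 0.0623). SLCO4C1, an organic anion transporter, was at -1.31, TMEM132D at -0.97 and INAVA, an adaptor of innate immune signalling, at -1.16 by the authors' deposited table. Of nuclear proteins, CBFA2T3, a corepressor of the ETO family, was at -1.22, NUP50, of the nuclear pore, at -0.46 and WDR82, a subunit of SET1 methyltransferases, at -0.20 by the authors' deposited table. PSD, an exchange factor for the GTPase ARF6, was at 1.08 and PNMA6A at 1.40, with AP000295.1 at 0.58 and the intronic transcript AC019080.5 at -0.97, by the authors' deposited table. The last of these lies inside another gene, so its reads cannot be separated from those of unspliced RNA.

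Fold changes also differed by chromosome. Over 362 protein-coding genes of chromosome 22 with an adjusted p, 285 (78.7%) were lower in shPRKCQ cells, with a median of -0.12 computed from the authors' deposited table, or 91.8% of the NTC level. Over the other chromosomes 47.7% were lower and the median was 0.0071. Both parts of the chromosome did so, with a median of -0.13 from 10 to 30 Mb and of -0.11 from 30 to 60 Mb. Of its genes 32 (8.84%) had an unadjusted p under 0.05, 29 of them lower, and SEZ6L was called. The same was seen in DMSO, where 86.1% of the 281 chromosome 22 genes in that table were lower, with a median of -0.11. Genes of this chromosome with the smallest p-values after SEZ6L and NUP50 were DERL3, of protein export from the endoplasmic reticulum, at -0.88 and ZNRF3, a ubiquitin ligase for Wnt receptors, at -0.65 by the authors' deposited table (unadjusted p = 0.000476 and 0.000543). CRKL, an adaptor of integrin signalling, was at -0.19 and HMOX1, haem oxygenase, at -0.83 by the authors' deposited table (unadjusted p = 0.00174 and 0.00218).

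Shifts also stood in stretches of other chromosomes, with medians of the same sign in both treatments. From 0 to 60 Mb of chromosome 3, 72.0% of 353 genes were lower, with medians of -0.084 in TPA and -0.071 in DMSO, against 53.8% of 442 genes over the rest of that chromosome, where the TPA median was -0.014. EAF1 and WDR82 lie in that stretch. From 80 to 110 Mb of chromosome 11, where ALKBH8 lies, 81.0% of 84 genes were lower, with medians of -0.12 and -0.093, a shift about as large as that of chromosome 22. Chromosome 18 was split: from 0 to 20 Mb 73.9% of 46 genes were lower, with medians of -0.075 and -0.029, while from 20 to 90 Mb 24.4% of 135 genes were lower, with medians of 0.098 and 0.087. The DMSO medians are over the genes also listed there. These were 281 on chromosome 3, 62 on chromosome 11, and 38 and 100 on chromosome 18. Over the same genes the TPA medians were -0.096, -0.12, -0.070 and 0.089. Chromosome 17 had a TPA median of 0.031 up to 30 Mb and of -0.068 from 30 to 70 Mb. These stretches were chosen after the values were seen and were given no test, and their part in the calls that lie in them was not tested. Left out of the adjustment, chromosome 22 took SEZ6L with it and left the other 21 calls.

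**Figure D3:**
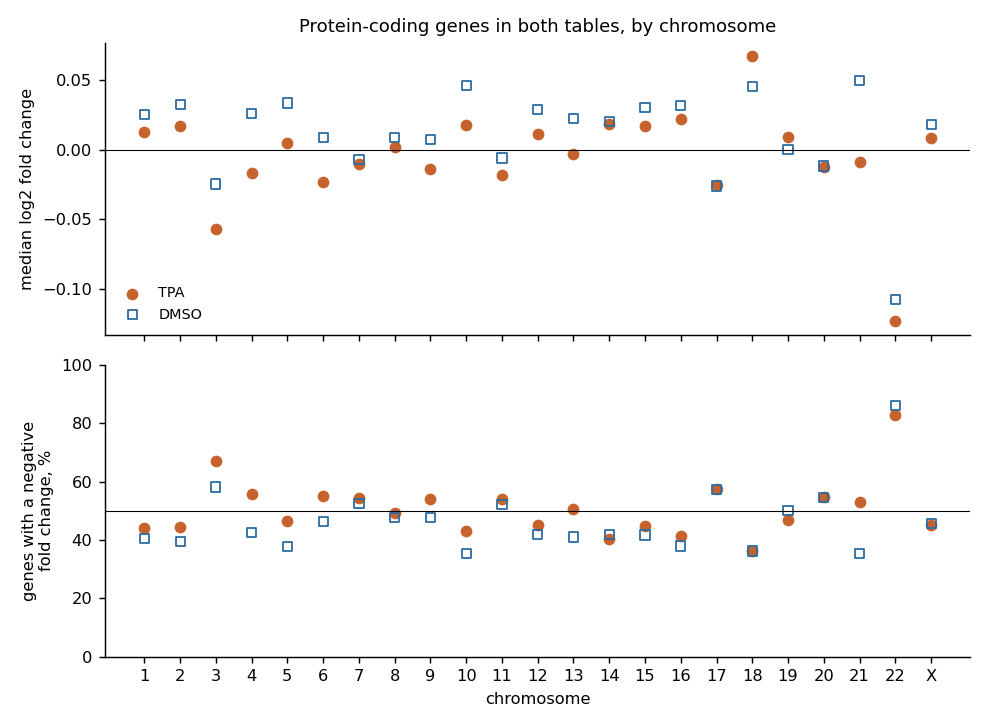
Median log2 fold change of shPRKCQ over NTC (upper panel) and percent of genes with a negative fold change (lower panel) by chromosome, for protein-coding genes in both tables; orange circles are TPA and blue squares DMSO. Chromosome 22 lies lowest in both treatments, with 82.9% of its genes negative in TPA and 86.1% in DMSO.

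Gene lists are described by the number of members with an adjusted p that were lower or higher and by their median, beside the 47.0% lower and the median of 0.011 over all genes. MHC class II genes, which present peptides to CD4+ T cells, and their regulators stood lowest of the lists: 15 of 15 were lower, with a median of -0.35 and a range from -0.86 to -0.001. None was called, and 4 had an unadjusted p under 0.05. Of these, HLA-DRA, the alpha chain of HLA-DR, was at -0.86 and HLA-DQA1, an alpha chain of HLA-DQ, at -0.48 by the authors' deposited table (unadjusted p = 0.0273 and 0.0365). RFX5, the DNA-binding subunit of their promoter complex, was at -0.24 and CIITA, the coactivator that switches the class on, at -0.64 by the authors' deposited table (unadjusted p = 0.0214 and 0.0301). Members in both tables, 10 in number, had a median of -0.29 in TPA and -0.053 in DMSO. The HLA genes lie in a stretch of chromosome 6 whose genes were mostly lower: from 30 to 40 Mb the 10 class II genes had a median of -0.45 and the other 176 genes of -0.080, 124 of them lower. The 5 list members on other chromosomes had a median of -0.21. With each fold change taken relative to its 10 Mb window the list median was -0.27 and 14 of 15 were lower.

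The promoter of HLA-DQA1 is shown because the CCAAT-like Y box is part of the known class II promoter module. It is printed as above, with CCAAT in capitals on either strand.
HLA-DQA1, chr6:32637156-32637415, plus strand: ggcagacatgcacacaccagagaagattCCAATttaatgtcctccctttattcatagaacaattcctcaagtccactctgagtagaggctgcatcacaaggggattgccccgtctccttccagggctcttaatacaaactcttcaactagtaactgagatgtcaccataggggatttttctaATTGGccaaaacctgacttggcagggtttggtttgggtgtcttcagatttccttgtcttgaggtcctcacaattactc
The second match begins 68 bases before the start. A CCAAT box was in 10 of 13 class II list promoters found (76.9%), against 36.6% of protein-coding genes with an adjusted p.

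Genes of cell division had small fold changes that were mostly negative. Of 49 genes of DNA replication and S phase 46 were lower and 3 higher, with a median of -0.22 and none with an unadjusted p under 0.05. RPA2, of the single-strand binding protein RPA, was at -0.28, TYMS, thymidylate synthase, at -0.42, GINS3, of the replicative helicase, at -0.34 and MCM5, a helicase subunit, at -0.31 by the authors' deposited table (unadjusted p = 0.0887, 0.103, 0.123 and 0.128). Of 36 genes of DNA repair and the Fanconi pathway 31 were lower, with a median of -0.15, among them XRCC2, of homologous recombination, at -0.44 and FANCD2, which is ubiquitinated at stalled forks, at -0.27 by the authors' deposited table (unadjusted p = 0.0706 and 0.0795). Of 46 mitotic genes 40 were lower, with a median of -0.12, with NDC80, of the kinetochore, at -0.32 and TOP2A, topoisomerase II alpha, at -0.25 by the authors' deposited table (unadjusted p = 0.0623 and 0.195). In DMSO the medians of the same lists were -0.022 for S phase, 0.0069 for repair and 0.084 for mitosis, where 39 of 46 were higher. G1 cyclins, their kinases and inhibitors had 15 of 17 lower and a median of -0.11. Over the 14 members also listed in DMSO the medians were -0.084 in TPA and -0.090 in DMSO. CDK6, the cyclin D partner, was at -0.76 and E2F3, an S phase activator, at -0.22 by the authors' deposited table (unadjusted p = 0.0485 and 0.0291). Taken relative to their 10 Mb windows, the S phase and mitotic lists had medians of -0.22 and -0.14. Genes of a list can vary together, so their number does not count independent observations.

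TYMS and NDC80 carry textbook motifs of these classes, and both lie on the stretch of chromosome 18 where 73.9% of genes were lower. Capitals mark the E2F motif, searched as TTTNNCGC, in TYMS and the cell cycle element CHR, searched as TTTGAA, in NDC80, on either strand.
TYMS, chr18:657403-657662, plus strand: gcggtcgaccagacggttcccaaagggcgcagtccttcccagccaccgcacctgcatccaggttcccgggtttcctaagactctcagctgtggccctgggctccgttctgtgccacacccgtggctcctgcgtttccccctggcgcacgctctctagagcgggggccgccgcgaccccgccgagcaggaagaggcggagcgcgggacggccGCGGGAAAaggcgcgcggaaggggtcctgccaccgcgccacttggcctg
NDC80, chr18:2571307-2571566, plus strand: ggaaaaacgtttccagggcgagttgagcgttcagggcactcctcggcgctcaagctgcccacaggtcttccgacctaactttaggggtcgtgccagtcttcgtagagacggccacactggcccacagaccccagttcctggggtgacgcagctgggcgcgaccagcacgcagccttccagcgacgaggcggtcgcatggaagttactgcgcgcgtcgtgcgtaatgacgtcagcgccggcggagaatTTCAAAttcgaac
The matches begin 39 and 3 bases before the starts. E2F matches were in 23 of 41 S phase promoters (56.1%) against 10.5% of protein-coding genes with an adjusted p, and CHR matches in 27 of 38 mitotic promoters (71.1%) against 10.1%.

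**Figure D4:**
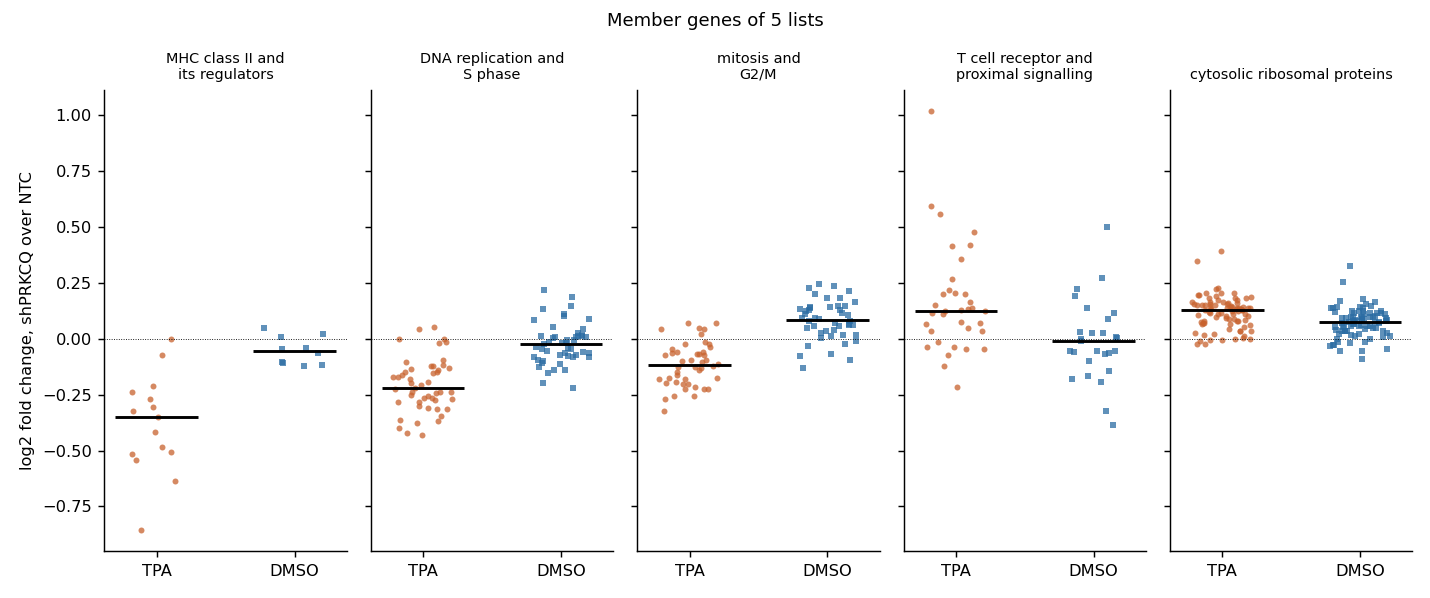
Log2 fold change of shPRKCQ over NTC (vertical axis) of each member gene with an adjusted p in TPA, for 5 lists, in TPA (orange circles) and in DMSO (blue squares, members in that table); black bars are medians. All 15 class II list genes lie below 0 in TPA, the mitotic medians are -0.12 and 0.084, and most ribosomal protein genes lie close together above 0, 80 of 86 in TPA and 75 of 85 in DMSO.

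Ribosomal protein genes were the most uniform group in the other direction. Of 86 genes of the cytosolic ribosome 80 were higher, with a median of 0.13 and an upper quartile of 0.16, and 3 had an unadjusted p under 0.05. Of these 3, RPL17 was at 0.21 and RPL7 at 0.14 by the authors' deposited table (unadjusted p = 0.0425 and 0.043). RPL35A, not among the 3, was at 0.16 by the authors' deposited table (unadjusted p = 0.0559). In DMSO the median of the list was 0.077. Many processed pseudogenes share reads with these genes, which makes single values uncertain. Genes of mitochondrial ribosomes had 40 higher, 38 lower and a median of 0.0013 in TPA, but 58 of 78 higher and a median of 0.072 in DMSO. Translation initiation factors had a median of 0.0065 over 41 genes in TPA. Nuclear genes of oxidative phosphorylation had 57 of 77 higher and a median of 0.043.

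The list of the T cell receptor and proximal signalling holds receptor chains, coreceptors, kinases, adaptors, phosphatases, ubiquitin ligases and enzymes of diacylglycerol signalling. It had 27 of 35 members higher and a median of 0.13. Over the 27 members also listed in DMSO the median was 0.11 in TPA, with 20 higher, and -0.010 in DMSO. CD6 and CD5, scavenger receptor proteins that restrain receptor signals, were at 1.02 and 0.56 by the authors' deposited table (unadjusted p = 0.00272 and 0.0167). DGKA, the kinase that removes diacylglycerol, was at 0.48 and LAT, the membrane adaptor, at 0.36 by the authors' deposited table (unadjusted p = 0.0438 and 0.13). Downstream, AP-1 and immediate early genes had 18 of 24 higher and a median of 0.13. JUN was at 0.62, the orphan receptor NR4A3 at 0.67 and JUND at 0.37, with BATF at -0.35, by the authors' deposited table (unadjusted p = 0.0105, 0.0204, 0.0273 and 0.0211). The NF-kappaB list had 13 higher, 17 lower, a median of -0.038 and no unadjusted p under 0.05; BCL3, an atypical inhibitor of the family, was at -0.30 and BIRC3, an NF-kappaB target, at -0.27 by the authors' deposited table (unadjusted p = 0.0639 and 0.101). For NFAT and calcineurin the median was 0.012 over 22 genes, with CABIN1, a calcineurin inhibitor on chromosome 22, at -0.32 and NFATC2 at -0.33 by the authors' deposited table (unadjusted p = 0.00453 and 0.0138). The Ras and ERK list had 21 of 30 higher, a median of 0.045 and no unadjusted p under 0.05; relative to the 10 Mb windows 15 were higher and 14 lower, with a median of 0.0056.

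Cytokine genes spread widely in both directions, with 16 of 27 lower and a median of -0.072. Besides SPP1, the members with the smallest p-values were IL10, an anti-inflammatory cytokine, at -1.07, IFNG, interferon gamma, at -1.59 and IL17F at 0.91 by the authors' deposited table (unadjusted p = 0.000927, 0.00259 and 0.0339). Of 26 chemokines and receptors 14 were lower; CCL20, the ligand of CCR6, was at 1.07 and CXCL10, an interferon-induced chemokine, at -0.96 by the authors' deposited table (unadjusted p = 0.0028 and 0.0191). Feedback inhibitors of cytokine receptors, SOCS2 and SOCS1, were at 0.76 and 0.40 by the authors' deposited table (unadjusted p = 0.00691 and 0.0252), in a list of 35 with a median of -0.028. TNFRSF9, the costimulatory receptor 4-1BB, was at 0.94 by the authors' deposited table (unadjusted p = 0.000686), in a list of 26 with a median of 0.082. Cytotoxic genes had 12 of 17 higher and a median of 0.17, with perforin (PRF1) at 0.56 and EOMES, a T-box factor, at -0.76 by the authors' deposited table (unadjusted p = 0.0296 and 0.000455). Over the 12 members in both tables the cytotoxic median was 0.045 in TPA and -0.053 in DMSO. Killer lectin and immunoglobulin receptors had 13 of 16 higher and a median of 0.29, or 0.13 over all 23 members with a p-value; KLRF2 was at 0.61 by the authors' deposited table (unadjusted p = 0.0352). Members of this family are near-identical, so reads could be split among them. Interferon-stimulated genes had 24 of 37 higher, with medians of 0.13 in TPA and 0.27 in DMSO over the 27 members in both tables; ISG15 was at 0.55, RSAD2 at 0.76 and DDX60 at 0.58 in TPA by the authors' deposited table (unadjusted p = 0.0296, 0.0319 and 0.0362).

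**Figure D5:**
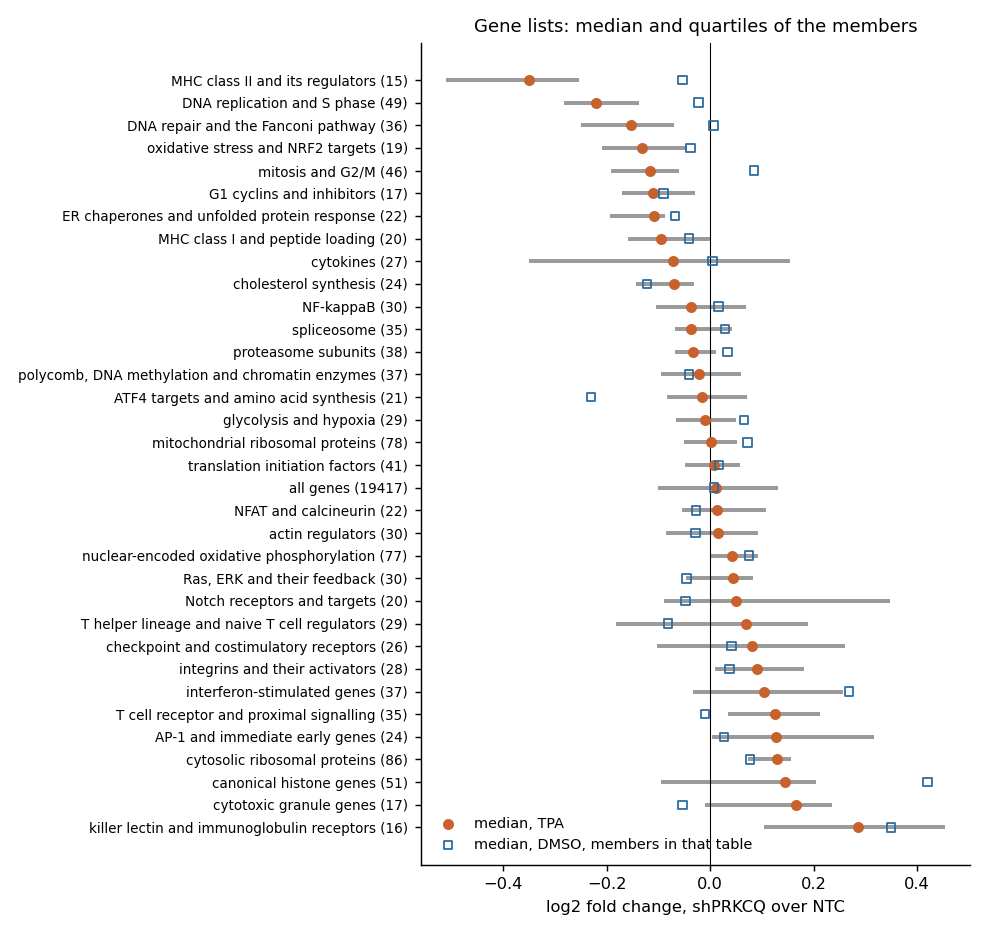
Median log2 fold change of shPRKCQ over NTC (orange circles) and the range between the quartiles of the members (grey bars) in TPA for 33 gene lists and for all genes, with the number of genes with an adjusted p in brackets; blue squares are medians in DMSO over the members in that table. Class II, S phase and repair genes have the lowest medians in TPA, and killer receptor, cytotoxic and histone genes the highest of the lists drawn for genes with an adjusted p.

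Stress and metabolic lists lay between these. Of 19 NRF2 targets and regulators 15 were lower, with a median of -0.13: HMOX1 on chromosome 22 was followed by PGD, of the pentose phosphate pathway, at -0.18 and TXNRD1, thioredoxin reductase, at -0.27 by the authors' deposited table (unadjusted p = 0.0303 and 0.0462). Of 22 endoplasmic reticulum chaperones and stress genes 18 were lower, with a median of -0.11, or -0.092 without the 3 members on chromosome 22, one of which is CRELD2, at -0.29 by the authors' deposited table (unadjusted p = 0.0365). The peptide-loading and MHC class I list had 15 of 20 lower and a median of -0.096, with TAP1 at -0.33 and TAP2 at -0.21 by the authors' deposited table (unadjusted p = 0.214 and 0.317); both lie in the chromosome 6 stretch of class II. Cholesterol synthesis genes had 19 of 24 lower and a median of -0.071, and INSIG1, which holds their activator in the endoplasmic reticulum, was at -0.51 by the authors' deposited table (unadjusted p = 0.0274). Lists with medians within 0.04 of 0 included the proteasome, the spliceosome, glycolysis, p53 targets, heat shock chaperones, aminoacyl-tRNA synthetases and chromatin enzymes.

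Markers were checked for the labelled cell type. Of 14 T cell identity genes 13 had an adjusted p, which shows only that they passed the authors' filter, and 12 were higher with a median of 0.14; CD3G was at 0.21 by the authors' deposited table (unadjusted p = 0.197). Markers of other cells with an adjusted p were 9 of 11 for B cells, 6 of 13 for myeloid cells and 12 of 16 for epithelial and stromal cells, with medians of 0.065, 0.15 and 0.064. Both directions were seen: B cell markers had 6 higher and 3 lower, and epithelial and stromal markers 7 higher and 5 lower. CD79B, a B cell receptor chain, was at -1.10 and PDGFRB, a stromal receptor, at -1.02 by the authors' deposited table (unadjusted p = 0.000773 and 0.00634). The collagen gene COL1A2 was at 0.80 and the keratin gene KRT5 at 0.77 by the authors' deposited table (unadjusted p = 0.0369 and 0.0437). The tables hold no expression levels, so how abundant these transcripts were is not known here.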

How the data were processed

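RNA of 24 libraries of MyLa and HuT 78 cells was sequenced from poly(A)-selected, strand-specific libraries, per the protocols in the labels. Tools listed in the submitters' processing notes are STAR 2.5.3a, RSEM 1.3.0, DESeq2 1.18.1 with the build GRCh38; the model, its covariates and the handling of molecular identifiers are not stated in them. Per the file headers, the authors deposited for each gene a log2 fold change with its p-value, before and after adjustment. Adjusted values differed from a Benjamini-Hochberg adjustment by a relative 0.00451 at most. Shared values (0.000537 for 2910 genes, none with an adjusted p) make it likely that fold changes were shrunken before deposit.

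A gene was called at the authors' adjusted p under 0.05. Implied SEs are the fold change over the z of its p-value; they gave 95% intervals and the test of the difference between TPA and DMSO, and were checked on simulated data. Identifiers matched GENCODE 29 (58780 of 58780). Promoters are RefSeq windows of GRCh38.p14. All called genes but 1, which is not reported here, are named, then the 20 with the smallest unadjusted p that did not pass, then up to 4 members of each of 89 lists; others were named after their values were seen. The members and lists were chosen with earlier results of these data known. Python 3.11.15, numpy 2.4.6, pandas 2.3.3 and scipy 1.17.1 were used. Depth is unknown and no count test was run.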

Additional observations from a re-analysis of the deposited data

How the results depend on the processing

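No paired analysis was possible because only fitted values per gene were used, none per library; leaving out replicates, other normalizations, filters on counts and other tools were not run for the same reason. Against 22 calls, an adjusted p under 0.01 left 10, an adjusted p under 0.1 gave 39, a minimum absolute log2 fold change of 1 left 14 and rescaled p-values gave 113, which held all 22. Readjusting over the genes in the DMSO table, which holds 10 of the 22, gave 8, without ALKBH8 and HIPK2; fewer genes were open to be called. The other alternatives gave 20 to 25 calls. PRKCQ passed in each. The difference between TPA and DMSO gave 0 calls, and 24 with rescaled p-values, among them no called gene of the TPA table. Of 89 list medians, the sign differed in 10 with low genes kept, in 13 relative to the 10 Mb window, in 8 with DMSO-table genes alone and in 2 without chromosome 22; the last and the window were chosen after seeing the data. Over all members with a p-value the median of canonical histone genes was 0.054, against 0.14 for those with an adjusted p. Depth limits could not be assessed.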

Other observations

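A fold change without a p-value is listed for 61 genes in the authors' deposited table for TPA, 54 positive and 7 negative, 50 of them protein-coding, with a median of 0.18. In DMSO 18 genes are in this state, and all 18 are among the 61. Several are genes of T cell function: CCL22, a ligand of the skin-homing receptor CCR4, was at 0.86, TBX21, the T helper 1 factor T-bet, at -0.30, CD28, the costimulatory receptor, at 0.17 and IL9 at 0.10 by the authors' deposited table. They were named after their values were seen, and none of them enters the counts above.

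Of all genes, 3 without an adjusted p had unadjusted p-values that rank behind PRKCQ and around NLRP2, yet fold changes near 0. By the authors' deposited table AL662884.2 was at 0.083 (unadjusted p = 3.11e-11), the read-through gene INMT-MINDY4 at 0.062 (unadjusted p = 2.02e-10) and AC011476.2 at -0.061 (unadjusted p = 4.94e-10).

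Genes with wide implied errors leaned to positive values. Of the third of genes with the largest implied SE, 660 were above 0.5 and 374 below -0.5, with a median of 0.070, while the third with the smallest had a median of -0.00066.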
